A study of Mus musculus with 24 samples.

Results

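Long noncoding RNAs (lncRNAs) listed as specific to the adult mouse brain were examined in a cultured line, the embryonal carcinoma F9. The members were chosen by 2 measured values, their place on the study's list of brain lncRNAs and a probe signal well above background on all 3 F9 arrays, leaving out the loci Gap43, Snap25 and Mobp. They numbered 40 of the 586 brain lncRNA probes read, from 38 named loci, on an array of 60804 transcript probes. The study's own count of brain-specific lncRNAs is somewhat higher than 586. F9 detection itself chose the members, and 36.7% of all transcript probes passed the same rule in F9. The study profiled lncRNAs and mRNAs across organs in search of testis-specific transcripts and added germ cell-related lines. Brain, heart, kidney, liver and testis came from male ICR mice aged 8 weeks, with 3 arrays per organ. F9, GC-1 and GC-2 were grown in serum-containing medium, F9 on gelatin, with 3 arrays per line, and the series describes all replicates as biological. F9 comes from a testicular teratocarcinoma, and GC-1 and GC-2 are immortalized lines described as resembling spermatogonia and spermatocytes. Each cell type is represented by 1 line, and the labels name no treatment or genotype.

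Background on these molecules helps in reading the values. An lncRNA is a long transcript without a long reading frame, and many are made in few cell types, the brain being especially rich in them. Some lie antisense to or beside genes for developmental regulators, some carry microRNAs or small nucleolar RNAs in their introns, and some come from imprinted clusters in which only 1 parental copy is read. Embryonal carcinoma cells are pluripotent and can be turned into neural derivatives, and a few lncRNAs are known from both pluripotent and neural cells.

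Levels are log2 of the processed intensity minus the 75th percentile of the same array, so that 0 is the 75th percentile and 1 unit is a factor of 2. Means are given ± SD over 3 arrays. "Detected" means flagged well above background on all 3 arrays of a group. Because probes differ in how brightly they report, levels were compared between groups for 1 probe. Ordering probes by level served only to arrange the plots and to choose examples, and says nothing about the amounts of different transcripts. The 75th percentile lay between intensities of 30.7 and 384, from 18257 to 37393 probes per array were well above background, and no member was saturated on any array. On the liver arrays the lowest level well above background was -0.976, -1.28 and -1.613. For members dimmer than this in F9, a missing liver flag does not show a level below that of F9. Replicate 1 of all groups was hybridised on slide 1. Replicates 2 and 3 of F9, GC-1 and GC-2 were on slide 3, and those of brain on slide 2. Of 10 genes listed for pluripotent cells only Zfp42 could be identified on the arrays. It was detected in F9 (4.65 ± 0.39) and in testis (-1.61 ± 0.26) and on no array of brain, GC-1 or GC-2. Stra8, a gene of spermatogonia entering meiosis, was detected in testis and F9 (1.25 ± 0.34) and on no GC array. The Leydig cell gene Star was detected in testis (2.58 ± 0.34) and, at much lower levels, in GC-1 (-2.23 ± 0.28) and GC-2 (-1.55 ± 1.40). Of 35 marker genes listed in all, 8 were identified. For neurons these were noncoding probes at 4 of 7 loci. Those at Snap25, Map2 and Rbfox3 were not well above background on any F9 array, with means of -4.46, -4.52 and -4.50, whereas the one at Gap43, left out by the rule, was detected in F9 at 5.16 ± 0.45 and in both GC lines. No mRNA of a neuronal gene was among those identified, so the brain label was not checked by mRNA.

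**Figure D1:**
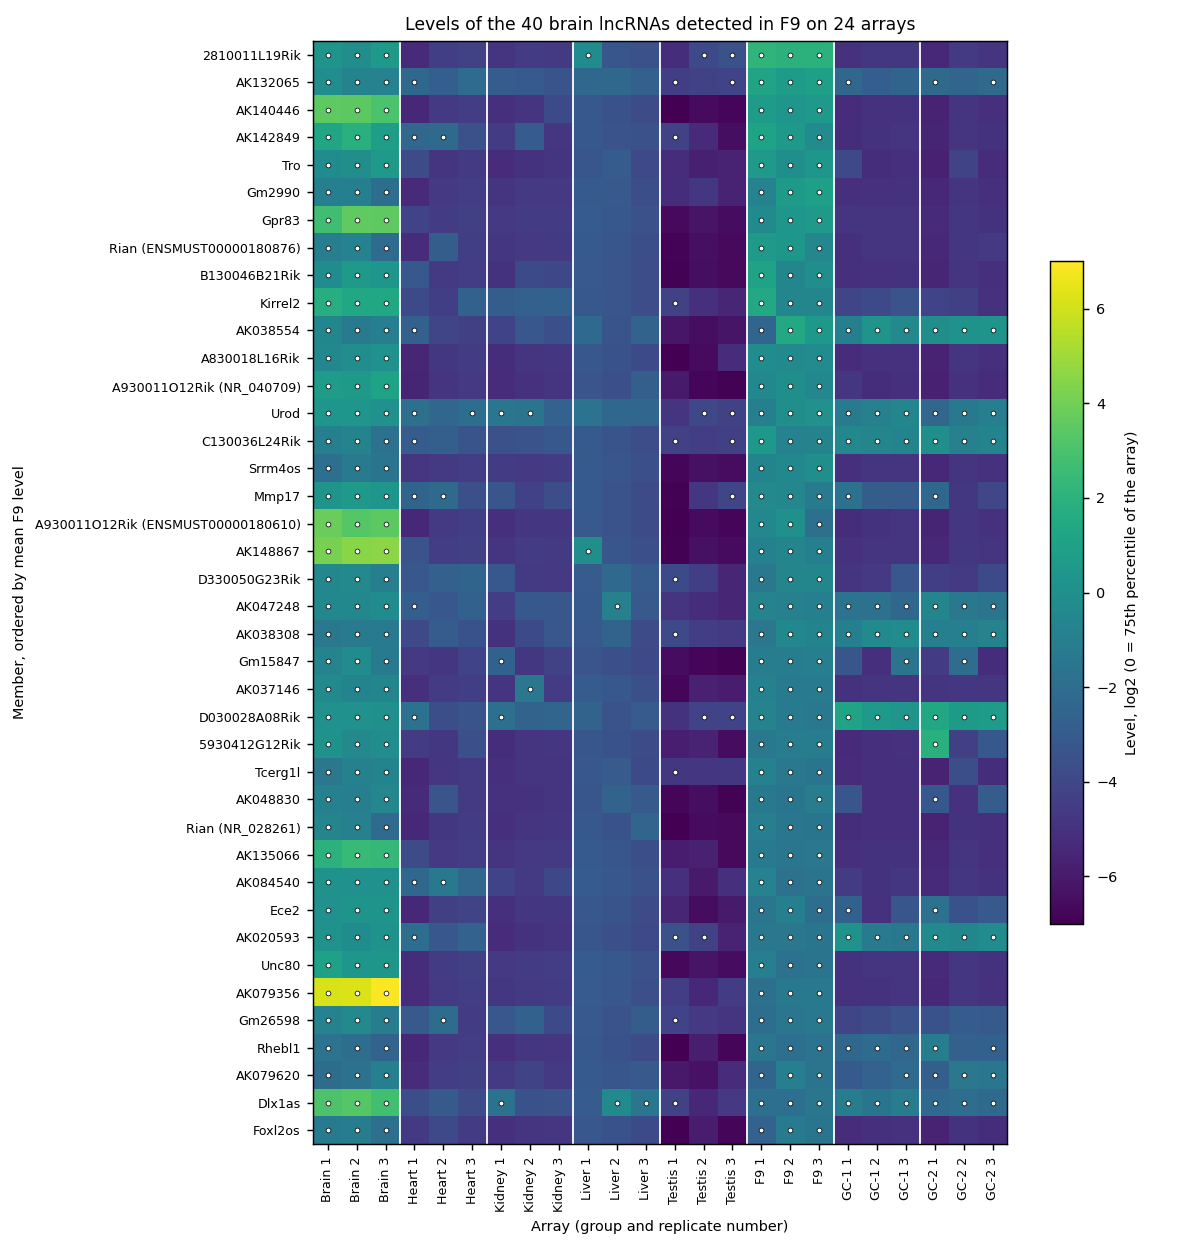
Heat map of the log2 level (colour, 0 is the 75th percentile of the array) of the 40 members, 1 per row in the order of their mean F9 level, on the 24 arrays, 1 per column. White dots mark arrays on which the probe was well above background, which by selection holds for every brain and F9 array, and 24 members carry no dot on any GC-1 or GC-2 array.

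The member at the locus 2810011L19Rik, now named Tunar, was the one whose F9 level lay farthest above brain. Tunar is an lncRNA known from the maintenance of mouse embryonic stem cells and from neural differentiation. RefSeq places it at chr12:105336594-105383932 (GRCm38.p6), and the member probe reads the transcript uc007oyh.1. On the F9 arrays it stood at 2.14, 1.98 and 1.98, and on the brain arrays at 0.24, -0.07 and 0.50. All F9 arrays lay above all brain arrays, and the F9 mean of 2.03 ± 0.09 exceeded the brain mean of 0.22 ± 0.29 by 1.81. Brain is a mixture of cell types, so that fewer expressing cells and less RNA per cell cannot be told apart here or in the comparisons with brain that follow. Outside brain and F9, 1 liver array and 2 testis arrays were well above background. GC-1 and GC-2 had no array well above background, which puts F9 at least 29.8-fold above GC-1 and at least 32.5-fold above GC-2. For these bounds the undetected level was taken as the lowest level well above background on each array, or the probe's own where that was higher. These and the later bounds hold only for the background subtraction and scaling used here. With another background correction (normexp) the log2 differences for Tunar were smaller, at 2.917 for GC-1 and 2.91 for GC-2. A second probe of the same gene, for the transcript NR_045047, was not on the brain sheet and behaved differently. It was detected in all 5 organs and all 3 lines, with means of 3.33 ± 0.50 for F9, 2.81 ± 0.70 for GC-1 and 2.28 ± 0.56 for GC-2. On that probe brain, at 4.69 ± 0.25, lay above F9. The probes of this locus therefore differed in which groups they detected.

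RefSeq gives Tunar a pair of annotated starts, and the 300 bases around each are shown because the member's transcript is reported apart from the other one. Capitals mark CG dinucleotides, of which the upstream window (chr12:105336344-105336643, plus strand) holds 11 and the downstream window (chr12:105336743-105337042, plus strand) 30. Which start the member's transcript uses is not given in the sources used here.
Tunar upstream start: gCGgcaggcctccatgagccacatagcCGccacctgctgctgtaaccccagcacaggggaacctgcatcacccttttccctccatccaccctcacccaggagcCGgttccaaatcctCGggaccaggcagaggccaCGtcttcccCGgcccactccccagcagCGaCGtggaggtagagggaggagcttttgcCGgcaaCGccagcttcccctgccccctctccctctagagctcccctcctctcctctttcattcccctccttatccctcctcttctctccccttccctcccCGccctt
Tunar downstream start: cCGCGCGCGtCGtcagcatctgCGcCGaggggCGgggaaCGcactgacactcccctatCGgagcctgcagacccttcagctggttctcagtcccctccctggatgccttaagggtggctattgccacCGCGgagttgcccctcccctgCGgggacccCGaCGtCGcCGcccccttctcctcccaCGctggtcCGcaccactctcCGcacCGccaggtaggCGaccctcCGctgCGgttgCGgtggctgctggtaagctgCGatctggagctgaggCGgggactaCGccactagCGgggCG

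Both Rian members were detected in F9 and in no GC array. Rian is a maternally expressed lncRNA of the imprinted Dlk1-Dio3 cluster and a host of C/D box small nucleolar RNAs. RefSeq places it at chr12:109603945-109661716, where its span holds 11 annotated small nucleolar RNA genes and 3 microRNA genes, and overlaps the coding gene Rtl1. The probe for ENSMUST00000180876 read 0.58, 0.39 and -0.53 in F9 against -1.03, -0.80 and -2.11 in brain. Every F9 array was above every brain array, with a difference of 1.46. The probe for NR_028261 read -1.001, -1.51 and -1.54 in F9 and -0.61, -0.92 and -2.12 in brain, so that the groups overlapped. The remaining pair of Rian probes on the sheet was not well above background on all 3 F9 arrays, with means of -1.96 ± 1.12 for uc007paz.2 and -2.80 ± 0.47 for uc011ysp.1. All 4 Rian probes were without a well-above-background array in heart, kidney, liver, testis, GC-1 and GC-2. Of the 5 imprinted symbols listed, 3 were on the sheet with 7 probes, and the members among these were both at Rian. Both Meg3 probes on the sheet, from the same cluster, were well above background on 2 of 3 F9 arrays and so stayed outside the rule. The other 5 Meg3 probes, not on the sheet, were detected in F9, and they split on the GC lines. Those for NR_003633 (4.83 ± 0.54 in F9) and ENSMUST00000129245 (4.67 ± 0.58 in F9) were well above background on no GC array, while those for ENSMUST00000150851, NR_027651 and uc007pat.2 were detected in both GC lines. The single Nnat probe on the sheet was well above background on no F9 array, and neither was the snoRNA host Snhg11 a member.

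The mature microRNAs annotated within Rian are shown because the locus is known as a host of small RNAs. The small nucleolar RNAs are not shown. Their levels were not analysed here. Capitals mark the seed, bases 2 to 8, and no seed is shared between them.
mmu-miR-341-5p: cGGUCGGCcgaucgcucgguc
mmu-miR-341-3p: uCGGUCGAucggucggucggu
mmu-miR-1188-5p: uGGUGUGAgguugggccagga
mmu-miR-1188-3p: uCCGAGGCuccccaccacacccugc
mmu-miR-370-5p: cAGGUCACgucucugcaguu
mmu-miR-370-3p: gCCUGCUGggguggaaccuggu

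Around the annotated start of Rian (chr12:109603695-109603994, plus strand) no CG occurs in 300 bases, whereas the median over 32851 RefSeq promoters of the same length was 7.
Rian: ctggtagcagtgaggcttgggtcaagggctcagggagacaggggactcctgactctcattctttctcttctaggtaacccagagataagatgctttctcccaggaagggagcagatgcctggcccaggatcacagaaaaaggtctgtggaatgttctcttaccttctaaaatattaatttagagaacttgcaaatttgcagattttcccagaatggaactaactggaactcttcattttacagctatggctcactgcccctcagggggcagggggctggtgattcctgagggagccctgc

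The host transcript of miR-124, A930011O12Rik, now Mir124a-1hg, was represented by a pair of members. miR-124 is among the most abundant microRNAs of neurons. RefSeq places the host at chr14:64588115-64593961, with the genes Mir124a-1 and Mir3078 inside it. The probe for ENSMUST00000180610 read 3.77, 3.30 and 3.46 in brain and -0.49, 0.03 and -1.82 in F9, a 19.3-fold lower level in F9 with no overlap. The probe for NR_040709 read 0.74, 0.59 and 1.15 in brain and -0.46, -0.01 and -0.44 in F9, which was 2.19-fold lower, again with no overlap. Neither probe was well above background on any array of heart, kidney, liver, testis, GC-1 or GC-2. F9 stood at least 4.31-fold above GC-1 and at least 4.69-fold above GC-2 on the first probe, and at least 5.91-fold and 6.44-fold on the second. None of the 3 sheet probes of C130071C03Rik, listed here as another microRNA host, was a member.

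Among 7 listed lncRNAs that lie opposite or beside genes for developmental regulators, 3 were members, namely Dlx1as, Srrm4os and Foxl2os. In GC-1, 2 of the 7 were detected, and in GC-2 also 2. F9 detected 7.0% of all sheet probes read, GC-1 5.97% and GC-2 6.66%, and with 7 probes these counts are given as a description. Dlx1as is transcribed across Dlx1, a homeobox gene of forebrain interneurons, and RefSeq places it at chr2:71530638-71537891. Its levels were 3.09, 3.31 and 2.74 in brain and -1.87, -1.87 and -1.53 in F9, 27.9-fold lower in F9 with no overlap. It was also detected in both GC lines, at -1.24 ± 0.26 in GC-1 and -2.13 ± 0.11 in GC-2, and the F9 arrays overlapped those of GC-1 and lay above those of GC-2. It was also well above background on 4 scattered arrays of kidney, liver and testis.

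Srrm4os lies at chr5:116438722-116465487 and overlaps Srrm4, which encodes a splicing regulator of neurons. It read -0.70, -0.49 and -0.04 in F9 and -1.89, -1.30 and -1.61 in brain, with every F9 array above every brain array. No array outside brain and F9 was flagged, and F9 was at least 5.49-fold above GC-1 and at least 5.97-fold above GC-2. Foxl2os, at chr9:98949155-98955310 beside Foxl2, a regulator of the ovary, read -2.61, -1.26 and -1.57 in F9 and -1.26, -1.14 and -1.86 in brain. The groups overlapped, and no array of the other groups was flagged. At its mean F9 level of -1.81 it could not have been flagged on the liver arrays, whose lowest such level was -1.613.

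The window around the start of Foxl2os is shown because its probe was matched by transcript accession and was well above background on no array outside brain and F9. Its 300 bases hold 28 CG dinucleotides, in capitals (chr9:98955261-98955560, minus strand). This count was reached or passed by 14.2% of the promoters.
Foxl2os: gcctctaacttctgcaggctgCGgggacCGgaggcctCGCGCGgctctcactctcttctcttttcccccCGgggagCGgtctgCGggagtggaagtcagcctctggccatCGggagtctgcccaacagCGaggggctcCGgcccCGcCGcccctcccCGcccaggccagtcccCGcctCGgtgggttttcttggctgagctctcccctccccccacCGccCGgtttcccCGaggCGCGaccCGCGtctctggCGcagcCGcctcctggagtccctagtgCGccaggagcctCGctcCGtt

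From 19 listed probes at loci of synaptic receptors, channels and transporters, Gpr83 and Unc80 were members. From 21 at loci of cell adhesion and axon genes Kirrel2 was a member, and from 12 at loci of synapse and vesicle proteins none was. These shares of 2 in 19, 1 in 21 and 0 in 12 stand near the 7.0% of all sheet probes detected in F9, and nothing particular to these lists is read from them. In GC-1 and GC-2 the detected probes numbered 0 and 1 for the receptors, 0 and 2 for adhesion, and 1 and 0 for the vesicle proteins. The probes read noncoding transcripts at these loci, so the values do not give the level of the coding mRNA.

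Gpr83 encodes a G protein-coupled receptor of brain and lies at chr9:14859880-14870789. Its noncoding transcript ENSMUST00000133278 read 2.70, 3.59 and 3.55 in brain and -0.32, 0.38 and 0.56 in F9, 8.40-fold lower without overlap. Unc80, at chr1:66467915-66699150, encodes a subunit of the NALCN sodium leak channel. The transcript ENSMUST00000136727 read 1.01, 0.38 and 0.42 in brain and -1.03, -1.77 and -1.61 in F9, lower by a difference of 2.07 without overlap. Kirrel2, an adhesion molecule of the immunoglobulin superfamily at chr7:30447766-30457515, read 1.73, 1.38 and 1.32 in brain and 1.45, -0.59 and -0.59 in F9. For Kirrel2 the F9 arrays disagreed, and only F9 replicate 1, on the slide that holds replicate 1 of every group, reached the brain values. None of these 3 was flagged on any GC array.

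The class and neighbours of 2 members could be read in the study's tables. AK079356 is an intergenic transcript at chr4:56957174-56959609, minus strand. The genome build of these table coordinates is not given in the sources used here. It was the member with the widest gap between brain and F9, reading 6.18, 6.26 and 6.92 in brain and -1.80, -1.36 and -1.32 in F9, which is 247-fold lower. AK148867, at chrX:157815296-157818113 on the minus strand, is classed as bidirectional with Klhl34, a gene of the kelch-like family. Its brain arrays read 4.11, 4.52 and 4.59 and its F9 arrays -0.85, -0.64 and -0.93, 37.1-fold lower. AK148867 was flagged on liver replicate 1 as well, and AK079356 on no array outside brain and F9. In F9 both were dim but repeatable, with SDs of 0.27 and 0.15. Their 60-base probes are shown because they are what was detected in F9, and capitals are not used in them.
AK079356 probe: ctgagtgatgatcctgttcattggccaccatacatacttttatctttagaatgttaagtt
AK148867 probe: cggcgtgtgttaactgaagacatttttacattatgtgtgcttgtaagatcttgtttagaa

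Over the 40 members, the F9 mean was lower than the brain mean for 30 and higher for 10. All 3 F9 arrays lay below all 3 brain arrays for 19 members (20.4% of all transcript probes did so) and above them for 5 (49.5% of all did so), and the groups overlapped for 16. The 5 above brain were Tunar, Gm2990, AK132065, the Rian probe for ENSMUST00000180876 and Srrm4os. These counts describe a choice made on the same brain and F9 values and were not tested.

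The centre of that comparison moved with the scaling. The median difference F9 minus brain was -0.54 over the members and 0.79 over all probes, a gap of -1.33. Scaled on probes well above background on all 24 arrays, the medians were -1.43 and -0.11, and members were lower in F9 in 35 cases and higher in 5. Under that scaling all F9 arrays lay below brain for 28 members (33.6% of all probes) and above for 2 (15.6% of all probes), so that the order of the all-probe shares turned around. Scaled on each array's median, 24 were lower and 16 higher. Tunar and AK132065 had all F9 arrays above brain under all 5 scalings, while Gm2990, Rian and Srrm4os did so under 4 and overlapped when scaled on the probes well above background on all arrays. On slide 1, which held 1 array of each group, 29 members were lower and 11 higher in F9.

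AK132065 and Gm2990, whose genes could not be matched, were the other pair above brain. AK132065 read 1.18, 0.73 and 0.88 in F9 and -0.11, -0.71 and -0.79 in brain. It was also flagged on 1 GC-1 array, 2 GC-2 arrays and 3 arrays of heart and testis, so that it was not confined to brain and F9. Gm2990 read -0.81, 0.61 and 0.88 in F9 and -0.95, -0.98 and -1.96 in brain, and was flagged nowhere else. At the other end, AK135066 read 2.02, 2.49 and 2.33 in brain and -1.19, -1.50 and -1.44 in F9, 12.6-fold lower.

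AK140446 read 3.52, 3.46 and 3.02 in brain and 0.66, 0.29 and 0.54 in F9, 7.14-fold lower, with no other array flagged. Tro, the locus of the MAGE-family protein trophinin at chrX:150644710-150657583, read 0.58, -0.02 and 0.38 in F9 and -0.20, -0.08 and 0.52 in brain. AK142849 read 1.13, 0.52 and -0.24 in F9 and 1.204, 1.87 and 0.78 in brain. B130046B21Rik, an lncRNA gene at chr15:98806315-98810380 that overlaps Ddn, the gene of the postsynaptic protein dendrin, read 1.08, -0.58 and -0.16 in F9 and -0.21, 0.56 and 0.35 in brain. For Tro, AK142849 and B130046B21Rik the F9 and brain arrays overlapped.

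**Figure D2:**
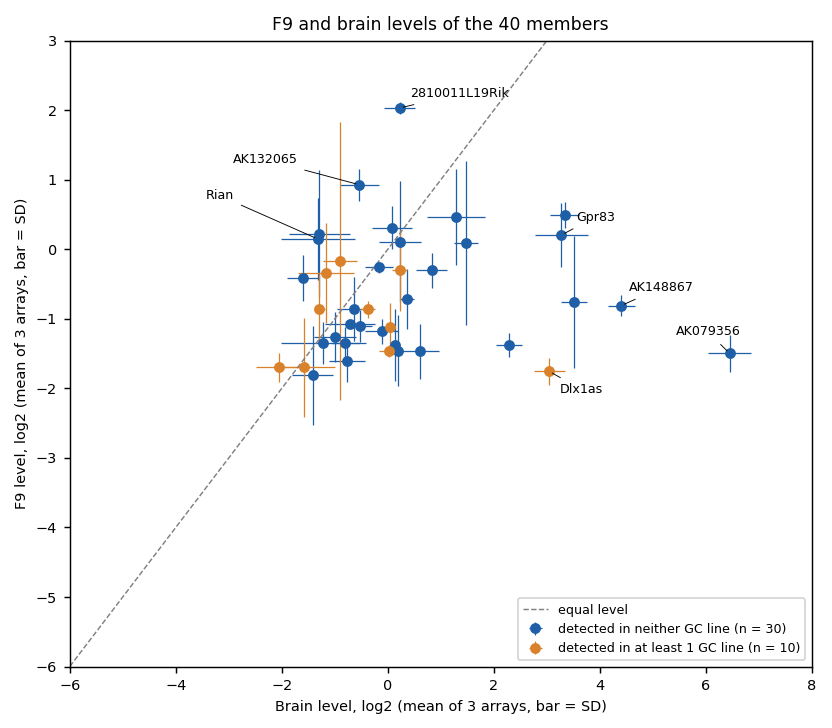
Mean log2 level in F9 (y axis) against brain (x axis) for the 40 members, with bars for the SD over 3 arrays and a dashed line of equal level. Tunar (plotted as 2810011L19Rik) lies above the line at 2.03 against 0.22, AK079356 lies at -1.50 against 6.45, and 10 members detected in a GC line are drawn in orange.

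Detection in GC-1 and GC-2 was not used to choose the members and was compared with that of all probes. GC-1 had 9 of the 40 members detected and GC-2 had 9, which is 22.5% in each, where 40.9% of all transcript probes were detected in GC-1 and 40.9% in GC-2. Of all probes detected in F9, 91.6% were detected in GC-1 and 91.5% in GC-2. Of the 545 sheet probes not detected in F9, 4.59% and 5.32% were. The members' share lay below that of all probes and above that of the other brain lncRNAs. With the scanner software's weaker detection flag, which asks only that a signal differ from background, the members' shares rose to 37.5% in GC-1 and 42.5% in GC-2, those of all probes to 54.7% and 54.4% and those of the other brain lncRNAs to 20.7% in each, so that the order was kept. No sheet probe was detected on all 3 arrays of another organ, so a set closer to the members is that of 246 probes of any kind detected in brain, in no other organ and in F9, of which 47.6% were detected in GC-1 and 52.4% in GC-2. These shares are descriptions, without a test.

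**Figure D3:**
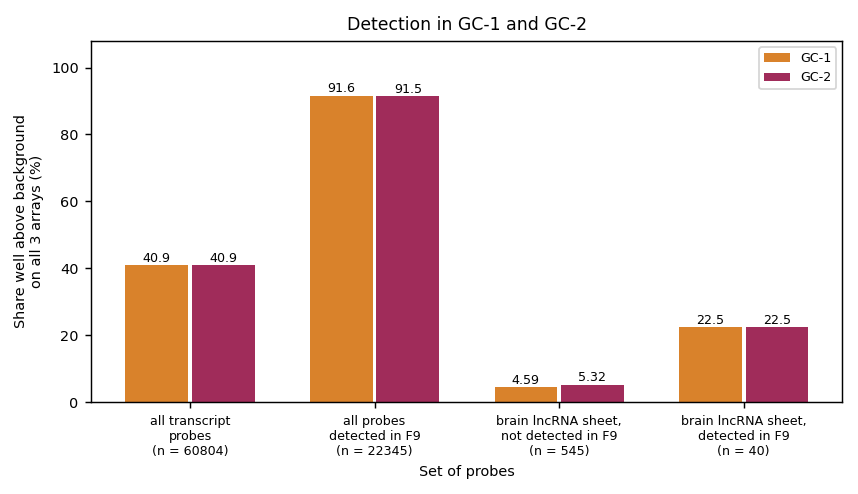
Share of probes (y axis, %) well above background on all 3 arrays of GC-1 or GC-2, for all transcript probes, all probes detected in F9, brain lncRNA probes not detected in F9 and the 40 members. The members stand at 22.5% in both lines.

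Both GC lines shared 8 members, Rhebl1 was detected in GC-1 but on 2 of 3 GC-2 arrays, and AK079620 in GC-2 but on 1 of 3 GC-1 arrays. The remaining 30 comprised 24 without any flagged GC array and 6 (AK132065, Mmp17, Gm15847, 5930412G12Rik, AK048830 and Ece2) flagged on some. For the 24, F9 stood at least 2.08-fold (Foxl2os) to 29.8-fold (Tunar) above GC-1 and at least 2.26-fold to 32.5-fold above GC-2. With normexp the log2 differences of Foxl2os were 0.723 for GC-1 and 0.83 for GC-2, below these bounds. Arrays of heart, kidney, liver and testis flagged the 8 shared members in 24 of 96 readings, and the 24 members without a GC array in 15 of 288. All 8 had at least 1 such array. Each of these arrays flagged between 18257 and 37393 of all 60804 probes. Of the 586 sheet probes, 508 were flagged on no heart array, 530 on no kidney array, 560 on no liver array and 495 on no testis array. The difference between the 8 and the 24 was not tested. Over the 40, all F9 arrays were above all GC-1 arrays for 32 members (21.8% of all probes) and below for 1 (15.4%), and above all GC-2 arrays for 30 (21.2%) and below for 2 (14.1%). Nothing is read from these counts, since F9 detection was the rule.

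D030028A08Rik was the member for which all arrays of both GC lines lay above all F9 arrays at the scaling used here. It is an lncRNA gene at chr11:96944146-96965060 that overlaps Sp2, a zinc finger factor gene. The arrays read -0.72, -1.25 and -1.37 in F9, 1.195, 0.54 and 0.31 in GC-1, 1.34, 0.65 and 0.66 in GC-2, and 0.08, 0.06 and 0.01 in brain. All GC arrays lay above all F9 arrays, by 1.79 for GC-1 and 2.00 for GC-2, and this held under all 5 scalings. They also lay above all brain arrays, by 0.63 and 0.83, under 4 scalings, but overlapped brain at differences of -0.155 and -0.017 when scaled on the probes well above background on all 24 arrays. The next probe of this kind, AK020593, read -1.37, -1.47 and -1.54 in F9 and -0.36, -0.58 and -0.26 in GC-2, without overlap, but 0.18, -1.25 and -1.40 in GC-1. By mean it was also higher in both GC lines, at -0.82 in GC-1 and -0.40 in GC-2 against -1.46 in F9. When scaled on the probes well above background on all 24 arrays, its F9 arrays lay below those of both GC lines.

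The window around the annotated start of D030028A08Rik (chr11:96943896-96944195, plus strand) is shown as the counterpart of Tunar and Rian, and it holds 9 CG dinucleotides in capitals. It contains 5 matches to CCAAT on either strand.
D030028A08Rik: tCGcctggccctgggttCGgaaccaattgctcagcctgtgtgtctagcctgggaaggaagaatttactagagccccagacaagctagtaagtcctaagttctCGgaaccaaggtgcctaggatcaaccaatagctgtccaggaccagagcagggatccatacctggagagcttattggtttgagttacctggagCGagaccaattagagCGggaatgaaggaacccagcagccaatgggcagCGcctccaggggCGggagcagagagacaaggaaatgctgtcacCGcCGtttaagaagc

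Such windows were available for 13 member genes, 14 in all, and held 0 to 35 CG dinucleotides with a median of 12.5. Of 4 motifs searched on both strands, TATAAA was found in 1 of the 14 (Gpr83), CCAAT in 4, GGACAGC in 1 and TTTGCAT in 0, with no overlap between matches. Over all promoters of that length the shares were 13.6% for TATAAA, 37.4% for CCAAT, 6.56% for GGACAGC and 4.63% for TTTGCAT. These are matches of letters only.

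Of the other members detected in both GC lines, AK038554 had the widest spread in F9, at -2.41, 1.43 and 0.48, against -0.97, 0.24 and -0.44 in GC-1 and -0.06, 0.17 and 0.22 in GC-2. C130036L24Rik, an lncRNA gene at chr1:86359584-86368507, read 0.49, -0.78 and -0.72 for F9, -0.47, -0.65 and -0.70 for GC-1 and -0.01, -0.89 and -0.66 for GC-2. AK038308 read -1.43, -0.47 and -0.69 on the F9 arrays, -0.94, -0.32 and -0.24 on those of GC-1 and -0.94, -0.95 and -0.75 on those of GC-2. For these 3 the F9 arrays overlapped those of both GC lines. AK047248 averaged -0.86 ± 0.12 in F9, above all GC-1 arrays (mean -1.90 ± 0.33) and overlapping GC-2 (mean -1.21 ± 0.57).

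Among 23 listed probes at loci of genes used by most cells, Urod and Rhebl1 were members, and 4 were detected in GC-1 and 3 in GC-2. Of all sheet probes read, F9 detected 7.0%, GC-1 5.97% and GC-2 6.66%. Urod encodes a heme synthesis enzyme and lies at chr4:116989965-116994436. Its transcript ENSMUST00000135164 read -0.98, -0.01 and 0.08 in F9, -1.20, -0.88 and -0.58 in GC-1, -2.40, -1.35 and -0.995 in GC-2 and 0.33, 0.28 and 0.06 in brain. It was flagged on 6 arrays of heart, kidney and testis. Rhebl1, the locus of a Ras-family GTPase at chr15:98877760-98881497, read -1.50, -1.91 and -1.68 in F9 and -1.65, -1.96 and -2.52 in brain, and no array of another organ was flagged.

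**Figure D4:**
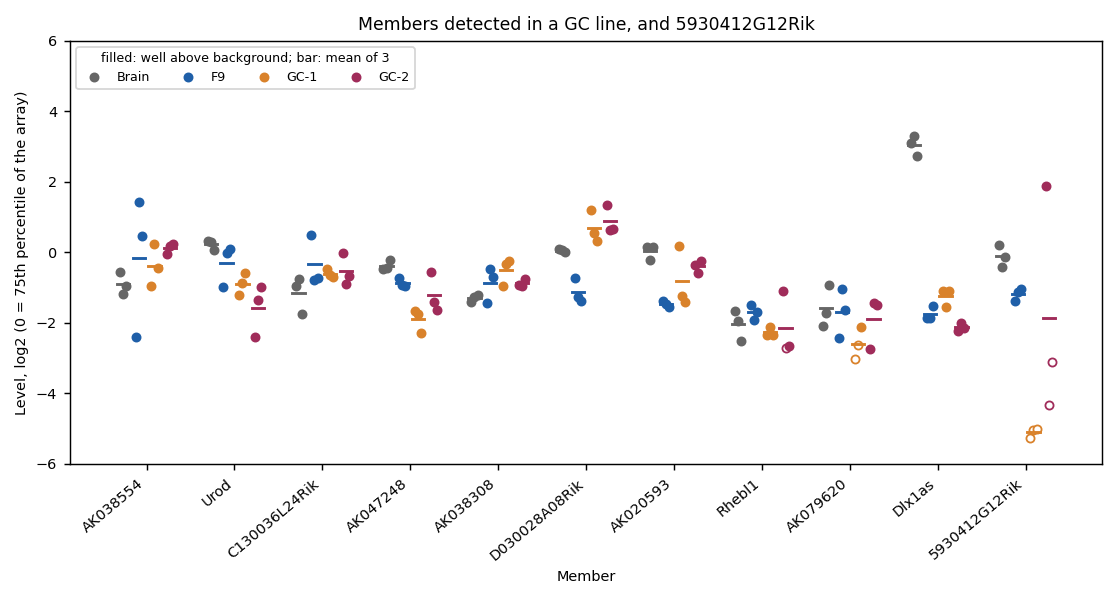
Log2 level (y axis) of the 10 members detected in at least 1 GC line and of 5930412G12Rik on each array of brain, F9, GC-1 and GC-2. Filled points are well above background, open points are not, and bars are means of 3 arrays. D030028A08Rik lies higher in both GC lines than in F9, and 5930412G12Rik has a single filled GC-2 point at 1.89.

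GC-1 and GC-2 arrays were not used to choose the members, and GC-2 was compared with GC-1 by limma over all 60804 probes. The fit took its spread from all 24 arrays, among them the brain and F9 arrays used in the choice. The test was therefore not fully independent of it. At an adjusted p of 0.05 or less, 11.2% of all probes were called, 5.17% higher and 6.02% lower in GC-2. Of the 40 members 1 was called, and the same 1 had an unadjusted p under 0.05. Over the 10 members detected in a GC line none was called, with adjusted p-values from limma of 0.336 to 0.92. Their 95% intervals still allowed sizeable differences, from -1.89 to 0.13 for Dlx1as (estimate -0.88), from -1.47 to 0.09 for Urod (-0.69) and from -0.63 to 1.04 for D030028A08Rik (0.20). For Dlx1as the width depended on the spread shared with the other groups. With only the 6 GC arrays fitted, its SE was 0.215 in place of 0.484. Its limma adjusted p was then 0.0531, just short of a call.

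The called member was 5930412G12Rik, now Fzd10os, an lncRNA gene at chr5:128579130-128600687 named for its place opposite Fzd10, a Wnt receptor gene. The arrays read -5.26, -5.05 and -5.00 in GC-1 and 1.89, -4.33 and -3.12 in GC-2, and only GC-2 replicate 1 was well above background. The fitted difference was 3.25 (SE 0.89, limma adjusted p = 0.0176), and it fell to 1.38 without that array (adjusted p = 0.0172). Since GC-1 and the other GC-2 arrays were not well above background, 3.25 is set against background readings, and 1.38 is a difference between such readings and no measured change of the transcript. The limma call was lost with the GC arrays fitted alone (adjusted p = 0.294), with another background correction (adjusted p = 0.0605), without GC-1 replicate 1 (adjusted p = 0.051) and within slide 3 (adjusted p = 0.0536). The readings differed by 7.15 on slide 1, with 1 array per line and GC-1 not well above background. On slide 3, where none of the 4 arrays was well above background, they differed by 1.30. F9 read -1.38, -1.11 and -1.04 and brain 0.20, -0.42 and -0.13, all well above background, with an SD of 0.18 in F9 against 3.30 in GC-2. The remaining pair of probes of this locus on the sheet was detected in brain but not in F9. ENSMUST00000126472 was flagged on 0 of 3 F9 arrays (mean -2.79) and NR_015517 on 1 of 3 (mean -3.675). Among the GC arrays this pair was also well above background on GC-2 replicate 1 alone, at 0.73 for ENSMUST00000126472 and 0.80 for NR_015517. The other GC-2 arrays lay between -4.91 and -4.69. GC-2 replicate 1 flagged 15 members against 10 and 11 on the other GC-2 arrays. Over all probes it also flagged more, 28655 against 26120 and 27052. Its part in the result was not tested beyond leaving it out.

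**Figure D5:**
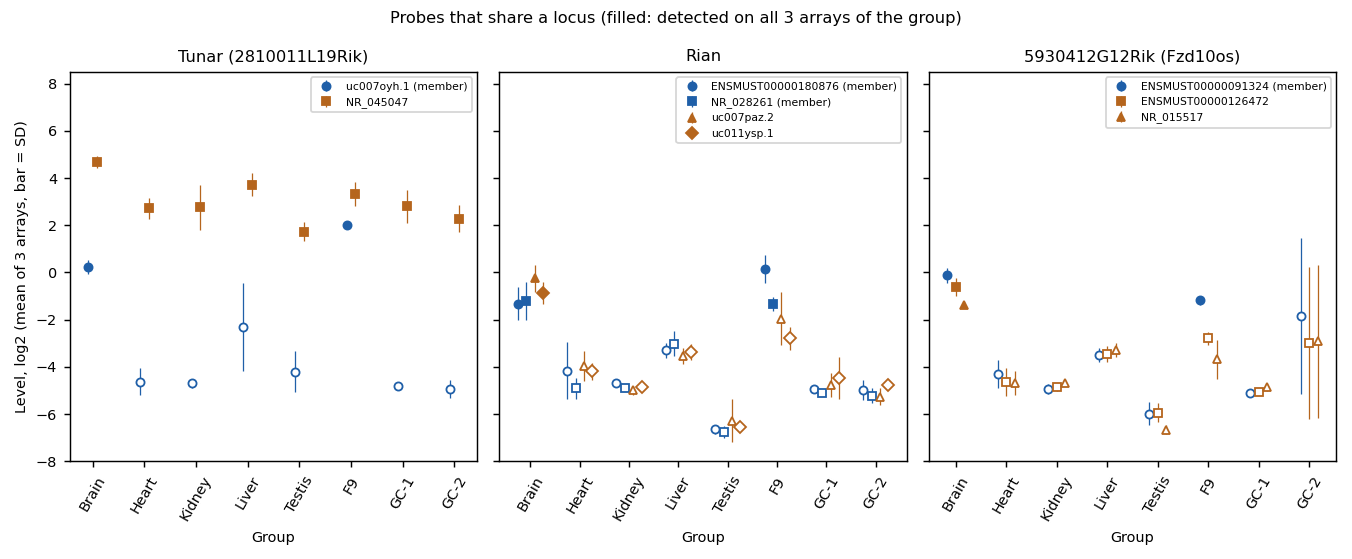
Mean log2 level (y axis, bars are SDs over 3 arrays) in the 8 groups of all probes read at the loci Tunar, Rian and 5930412G12Rik, with members in blue and filled marks for groups detected on all 3 arrays. At Tunar the member is filled in brain and F9 only while the probe for NR_045047 is filled in all groups, and the long GC-2 bars at 5930412G12Rik come from 1 array.

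The remaining members are given by their ranges. A830018L16Rik, D330050G23Rik, Tcerg1l and Gm15847 had overlapping F9 and brain arrays, with differences from -0.35 to -0.09. AK037146, AK048830, AK084540, Ece2, Gm26598 and Mmp17 lay below brain on all F9 arrays, by 1.46-fold to 3.15-fold. Ece2 encodes an endothelin-converting enzyme and Mmp17 a membrane-bound metalloproteinase, and AK079620 overlapped brain with a difference of -0.12.

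By annotation the members were mixed. RefSeq held 23 of the 40, matched by transcript accession for 7, by symbol for 13 and by an older symbol for 3, and these came from 21 genes, of which 10 were annotated as lncRNA, 10 as protein coding and 1 as antisense RNA. GC detection occurred for 2 of the 10 members at protein-coding genes, for 3 of 13 at lncRNA or antisense genes and for 5 of 17 without a match. Transcripts with ENSMUST identifiers made up 45.0% of the members and 33.6% of the sheet probes not detected in F9, and those with AK identifiers 30.0% and 33.4%.

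The rule's edge lay within the spread of single arrays. The members with the lowest probe signal in F9 were Foxl2os, Dlx1as and AK079620, at means of -1.81, -1.76 and -1.70. Just outside, flagged on 2 of 3 F9 arrays, were AK051693 (-0.21, -2.33 and -1.57), 6430411K18Rik (-1.20, -1.55 and -2.23) and AK039736 (-3.74, -0.55 and -0.70). Of the 586 sheet probes, 489 were flagged on no F9 array, 46 on 1, 10 on 2 and 41 on all 3, the last including the Gap43 lncRNA that was left out.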

How the data were processed

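Total RNA was labelled with Cy3 and hybridised to 24 single-colour Arraystar mouse lncRNA arrays, 3 per group. The authors deposited the intensity of 62243 spots per array. Per the labels and headers, Feature Extraction 11.5.1.1 made these files, with background subtracted and flags set by the software, without normalization between arrays. A deposited matrix of 60804 transcript probes was checked against these files, with a largest relative difference of 0.000228. Groups came from the sample titles. The intensities were put on a log2 scale and each array's 75th percentile was subtracted. Symbols, classes and probe sequences came from the study's tables as far as held here, and genes, promoters and microRNAs from RefSeq (GRCm38.p6). GC-2 minus GC-1 was fitted with limma 3.58.1 in R 4.3.3 over all probes and arrays (lmFit, eBayes, Benjamini-Hochberg adjustment, threshold 0.05), after a test on simulated data. Only this contrast was tested. The rule for named members took the 10 with the highest F9 level, the 5 largest and 5 smallest differences from brain, called members, the 5 highest in both GC lines, members with a class, with several probes or on the gene lists, and those beside the threshold, and the rest are given to account for every member. Members and lists were chosen with earlier results of these data known. The 3 arrays per group limit the precision. Median SDs over all probes ranged from 0.214 in GC-1 to 0.4547 in heart, with 0.3675 in GC-2, and the fit shares 1 spread across groups. Same-numbered arrays of GC-1 and GC-2 deviated together (correlations of 0.2914, 0.1259 and 0.1313), so the replicate number was tried as a block. Replicates 2 and 3, which share a slide, correlated to a like extent across numbers (0.1068 and 0.1433). On that slide a shared number thus made no clear difference. For replicate 1, on a slide of its own, number and slide cannot be told apart. Alternatives were other scalings, normexp with an offset of 50 on the median spot signals (chosen after seeing that the files hold no mean signal), a filter on dim probes, blocks, other flags and leaving out arrays.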

Additional observations from a re-analysis of the deposited data

How the results depend on the processing

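Membership depended on the flag. With the weaker flag for a signal positive and significant, 117 probes of the sheet would be detected in F9 in place of 40, and of the 40 members 15 were detected in GC-1 and 17 in GC-2. Leaving out 1 F9 array gave 41 to 48 members, leaving out 1 array of the line gave 9 in GC-1 and 9 to 11 in GC-2. The median difference F9 minus brain was -0.536 and became -1.434 when scaled on the probes well above background on all 24 arrays, -0.221 on the array median and -0.184 with normexp, and -0.611 to -0.51 without single arrays. GC-1 minus F9 was -3.462 (-3.583 to -3.43 without single arrays) and GC-2 minus F9 -3.544 (-3.702 to -3.393). With normexp they shrank to -0.899 and -0.962. As 9 of the 40 members were detected in each GC line, these medians are mostly set against readings that were not well above background. Over the 9 members detected in both F9 and the GC line, the median F9 minus GC-1 was 0.219 and F9 minus GC-2 0.183. The number of members called between the GC lines was 1 and became 0 with normexp, with the 6 GC arrays fitted alone, without GC-1 replicate 1 and within slide 3 (chosen after seeing the data), and was 0 to 1 over single arrays left out. The replicate block called 7423 probes in place of 6806 and the same 1 member, and it changed no other call among the members. Without GC-2 replicate 1 the differences of D030028A08Rik (-0.028), C130036L24Rik (-0.169) and Rhebl1 (-0.41) turned negative (ranges over single arrays left out of -0.028 to 0.46, -0.169 to 0.271 and -0.41 to 0.399), as did C130036L24Rik (-0.1) and Rhebl1 (-0.445) within slide 3. None of these 3 was called in any fit. The cause was not tested. Members dimmer than the lowest level well above background on an array, between -3.393 and -2.136 in the 3 lines, could not be seen there. On the liver arrays this level was higher, at -0.976, -1.28 and -1.613.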
